A study of Mus musculus with 6 samples.

Results

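The genes of mitochondrial ribosomal proteins were compared between S3 and S1, which are sorted subsets of red cell precursors of the mouse fetal liver. Members were all genes with a probe set whose single symbol in the array's annotation begins with Mrpl or Mrps and a digit. This gave 76 genes with 156 probe sets, among 11959 genes tested, and each gene was read by the probe set with the highest mean over the 6 arrays. All 76 were bright enough to be tested and read above background on all 6 arrays. S3 cells are the more mature and S1 cells the less mature in a sorting scheme that stains CD71, the receptor for transferrin, together with Ter119, an antigen of the erythroid surface, and a cocktail against other lineages. Both came from Balb/C fetal liver, with no treatment named in the labels, and each has 3 arrays from cells sorted on 3 separate days. The stage label gives embryonic day 13.5 for S3 and 12.5 for S1, while the source label gives 13.5 for all arrays, so that embryo age and subset cannot be told apart. Values are the authors' log2 signals on Affymetrix arrays, scaled on each array to 3 reference probe sets.

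Mitochondria carry their own ribosome, which translates the few proteins that mitochondrial DNA encodes, all of them core subunits of the respiratory chain and ATP synthase. Its ribosomal RNAs come from mitochondrial DNA, but every protein of its small and large subunit is encoded in the nucleus and imported. Many of these proteins descend from bacterial ribosomal proteins, and many others are particular to mitochondria. In red cell precursors mitochondria house the first and last steps of heme synthesis, and they are lost when the reticulocyte matures.

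Promoters are shown for the 3 members with the largest called falls (Mrps27, Mrps6 and Mrpl12) and for Mrpl51, the brightest member, whose level differed little between the subsets. They run from 250 bases before to 50 bases after the annotated start in RefSeq (GRCm38.p6), 5′ to 3′ on the gene's strand, with capitals for the letters of any motif searched. Mrps27 is at chr13:99344536-99344835, Mrps6 at chr16:92058086-92058385, Mrpl12 at chr11:120484387-120484686 and Mrpl51 at chr6:125191950-125192249, each on the plus strand.
Mrps27: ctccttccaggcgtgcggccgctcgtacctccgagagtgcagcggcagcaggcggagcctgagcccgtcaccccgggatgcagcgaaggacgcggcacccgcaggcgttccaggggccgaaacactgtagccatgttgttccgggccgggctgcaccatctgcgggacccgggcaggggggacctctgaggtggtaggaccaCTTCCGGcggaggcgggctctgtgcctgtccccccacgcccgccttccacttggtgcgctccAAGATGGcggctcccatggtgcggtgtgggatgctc
Mrps6: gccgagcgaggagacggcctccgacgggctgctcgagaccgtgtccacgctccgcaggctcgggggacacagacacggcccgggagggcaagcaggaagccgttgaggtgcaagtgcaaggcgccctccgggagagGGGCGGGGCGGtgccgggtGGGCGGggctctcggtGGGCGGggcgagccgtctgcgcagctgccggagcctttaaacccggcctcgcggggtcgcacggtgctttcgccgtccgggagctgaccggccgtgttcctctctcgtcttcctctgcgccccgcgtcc
Mrpl12: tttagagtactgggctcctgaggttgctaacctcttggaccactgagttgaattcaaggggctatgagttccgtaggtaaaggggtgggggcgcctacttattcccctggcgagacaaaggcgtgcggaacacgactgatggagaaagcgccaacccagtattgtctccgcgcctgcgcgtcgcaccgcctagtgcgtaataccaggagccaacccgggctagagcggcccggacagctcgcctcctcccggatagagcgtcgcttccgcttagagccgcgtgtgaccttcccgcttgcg
Mrpl51: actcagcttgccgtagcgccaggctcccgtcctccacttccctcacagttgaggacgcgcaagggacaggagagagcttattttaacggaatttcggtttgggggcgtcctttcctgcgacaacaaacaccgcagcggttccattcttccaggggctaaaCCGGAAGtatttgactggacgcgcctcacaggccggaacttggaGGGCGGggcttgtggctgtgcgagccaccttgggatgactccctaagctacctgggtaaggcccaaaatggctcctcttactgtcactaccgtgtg

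The capitals in the Mrps27 promoter are an ETS/GABP motif, read on the minus strand and beginning 48 bases before the start, and a YY1 motif beginning at base 15 after it. The Mrps6 promoter holds 4 matches of the GC box, of which 1 pair overlaps, the Mrpl12 promoter holds 0 matches, and the Mrpl51 promoter holds 1 ETS/GABP and 1 GC box match. The motifs searched on both strands were CCGGAAG (ETS/GABP), AAGATGG (YY1), GCATGCG (NRF1 core), CACGTG (E-box of MYC and USF), GGGCGG (GC box), CCAAT (NF-Y) and AGATAA (a motif of GATA factors). Of the 67 members with a promoter entry, 25 (37.3%) held CCGGAAG, against 9.93% of 27025 genes with an entry. For AAGATGG the shares were 13 of 67 members (19.4%) and 7.28% of all genes, and for GCATGCG 8 of 67 (11.9%) and 4.01%. Member promoters were also richer in G and C (median 58.7%, against 52.7% over all promoters) and in the pair CG (median 21 per promoter, against 7). CCGGAAG and GCATGCG hold this pair, and the 27025 genes were not limited to those tested. The part of either in the motif shares was not tested. The E-box was held by 5 of 67 (7.46%, against 8.09% of all genes), the GC box by 34 (50.7%, against 38.2%), CCAAT by 26 (38.8%, against 41.1%) and AGATAA by 11 (16.4%, against 12.7%). Among the 8 called members with an entry, 3 held CCGGAAG (Mrps27, Mrps26 and Mrps22), against 22 of the 59 members not called (37.3%). These matches describe letters in a window and not sites of binding.

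The arrays fell into 2 kinds by how well upstream parts of transcripts were read. For actin, the signal of the upstream control minus that of the downstream control was -2.59 to -2.08 (log2) on 3 arrays, called short here (S3 replicate 2, and S1 replicates 1 and 2). It was -0.56 to -0.45 on the 3 others, called long (S3 replicates 1 and 3, and S1 replicate 3). The 8 erythroid markers with a probe set read above background on all arrays, and 5 of them rose in S3 while all 4 early progenitor markers fell. Of the macrophage markers 2 of 8 were above background on all arrays and Adgre1 on none, with a summed level of 5.29 to 6.58 in S3 and 4.84 to 6.88 in S1 (log2). No endothelial, lymphoid or granulocyte and monocyte marker was above background on all arrays, and Tek, Cd3e, Il7r, Elane and Ctsg were above it on none. Of 3 tested granulocyte and monocyte markers 1 fell, and their summed level was 3.38 to 6.18 in S3 and 4.16 to 5.57 in S1. Summed megakaryocyte markers read 8.33 to 8.44 (log2) in S3 and 5.89 to 7.40 in S1, with 0 of 5 called, while summed hepatocyte markers reached 9.97 in S3, whose arrays spanned the 8.22 to 8.42 of S1. The part of these other cells in the results was not tested. In such bulk samples fewer cells of a type and less RNA per cell cannot be told apart.

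Setting S3 against S1 asks which mitochondrial ribosomal protein genes differ between the stages. Of the 76 genes, 9 were lower in S3 and 0 were higher (limma, Benjamini-Hochberg adjusted p under 0.05), and 67 were not called. That is 11.8% of the members, beside 12.8% of all genes tested that were lower and 2.53% that were higher. In this fit the share of lower calls was near that of the array as a whole. At an unadjusted p under 0.05, 19 members were lower (25%, beside 24.2% of all genes) and 0 higher (5.33% of all genes). The median log2 change of the members was -0.39, against -0.33 for all genes, and 65 members had a change below 0 (85.5%, beside 67.9% of all genes). The members' quartiles were -0.70 and -0.13, a narrower span than that of all genes (-0.92 and 0.16). Every S3 array read below every S1 array for 20 members (26.3%, beside 29.5% of all genes), and the reverse held for 0 members (5.81% of all genes).

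**Figure D1:**
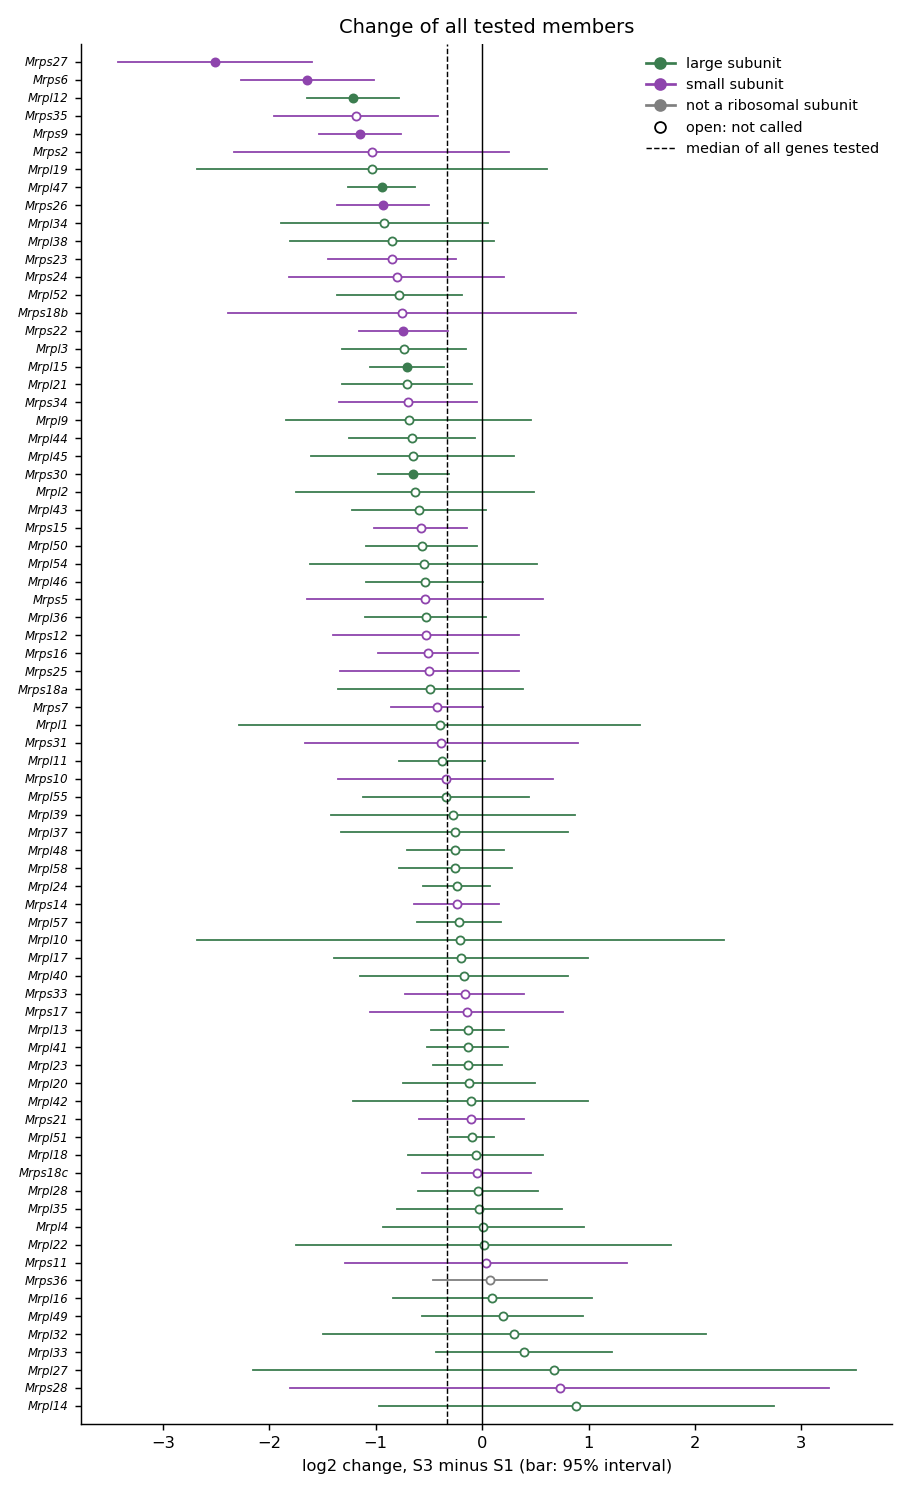
Log2 change of each of the 76 members, S3 minus S1 (points, with 95% intervals from limma as bars), ordered from the most negative. Filled points are the 9 called genes, colours give the ribosomal subunit, and the dashed line is the median of all genes tested (-0.33).

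The largest called change was in Mrps27, a pentatricopeptide repeat protein of the small subunit that is particular to mitochondria. It read 5.63, 4.73 and 5.69 (log2 signal) in S3 replicates 1, 2 and 3, against 7.90, 7.59 and 8.10 in S1 replicates 1, 2 and 3. The subsets were far apart on every array, and the short S3 array was the lowest of all. The mean was 5.35 ± 0.54 in S3 and 7.86 ± 0.26 in S1 (SD, n = 3 arrays each), a 5.71-fold difference (log2 change -2.51 ± 0.39 (SE), limma adjusted p = 0.00757). Mrps27 was also among the 3 dimmest members by mean signal, beside Mrpl10 and Mrpl14. Its neighbour Ptcd2, another mitochondrial pentatricopeptide repeat gene looked at after these values were seen, fell too, to 6.35 ± 0.09 in S3 against 7.60 ± 0.16 in S1 (log2 change -1.24 ± 0.29 (SE), limma adjusted p = 0.0276).

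Mrps6, the orthologue of bacterial ribosomal protein S6, had the next largest call. It read 7.88, 7.72 and 7.21 in S3, against 9.04, 9.11 and 9.59 in S1 (log2 signal, replicates 1 to 3). No S3 array came within a log2 unit of the lowest S1 array. The log2 change was -1.64 ± 0.27 (SE), or 3.12-fold lower (limma adjusted p = 0.00871). Its probe set is of a type that Affymetrix marks as possibly reading several transcripts, and Slc5a3, a myo-inositol transporter gene, overlaps Mrps6 and starts next to it in the RefSeq annotation. The other tested Mrps6 probe set changed by -1.15 ± 0.32 (SE), which missed the threshold over probe sets (limma adjusted p = 0.0619), and Slc5a3 itself, looked at after these values were seen, by -2.33 ± 0.80 (SE, limma adjusted p = 0.0959).

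The other small subunit genes that fell were Mrps9, Mrps26 and Mrps22. Mrps9, the orthologue of bacterial S9, had 8.17, 8.39 and 8.26 in S3, against 9.36, 9.49 and 9.40 in S1 (log2 signal), a log2 change of -1.14 ± 0.16 (SE, limma adjusted p = 0.00594). Both subsets were tight here, with an SD of 0.11 in S3 and 0.06 in S1. Mrps26, particular to mitochondria, had 9.06, 9.50 and 8.86 in S3, against 10.02, 10.22 and 9.99 in S1, a log2 change of -0.93 ± 0.18 (SE, limma adjusted p = 0.0170). Mrps22, also particular to mitochondria and known from inherited human disease, had 8.73, 8.50 and 8.50 in S3, against 9.10, 9.42 and 9.43 in S1, a log2 change of -0.74 ± 0.18 (SE, limma adjusted p = 0.0323). In none of these genes did the subsets overlap. Mrps35, just outside the threshold and named after its values were seen, had 7.65, 6.96 and 7.33 in S3, against 8.07, 8.44 and 8.99 in S1 (log2 change -1.19 ± 0.33 (SE), limma adjusted p = 0.0504).

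In the large subunit the largest called change was in Mrpl12, the stalk protein that contacts translation factors and also binds the mitochondrial RNA polymerase. It read 9.31, 9.12 and 8.94 in S3, against 9.99, 10.45 and 10.57 in S1 (log2 signal). All S3 arrays lay below all S1 arrays, and the log2 change was -1.21 ± 0.19 (SE), or 2.32-fold lower (limma adjusted p = 0.00725). Mrpl47, the orthologue of bacterial L29, read 9.30, 9.38 and 9.12 in S3, against 10.11, 10.37 and 10.16 in S1 (log2 change -0.95 ± 0.13 (SE), limma adjusted p = 0.00569). Mrpl15, the orthologue of bacterial L15, read 9.18, 9.04 and 8.87 in S3, against 9.60, 9.77 and 9.83 in S1 (log2 change -0.71 ± 0.15 (SE), limma adjusted p = 0.0208). The Mrpl15 probe set is marked as possibly cross-hybridising, and 7 other probe sets of this gene changed by -2.28 to -0.53, with 3 of them called over probe sets. Mrps30, which sits in the large subunit despite its name, read 9.10, 9.01 and 8.94 in S3, against 9.65, 9.79 and 9.55 in S1 (log2 change -0.65 ± 0.14 (SE), limma adjusted p = 0.0233). Of the called genes, 4 (Mrps6, Mrps9, Mrpl47 and Mrpl15) had further tested probe sets. All 12 of these had a negative change and 4 were called over probe sets. Among members not called, further probe sets of Mrpl1, Mrpl44, Mrpl50, Mrps15 and Mrps23 were called lower over probe sets. Of all 147 tested member probe sets 19 were called lower and 0 higher, beside 8.12% and 1.82% of all probe sets.

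**Figure D2:**
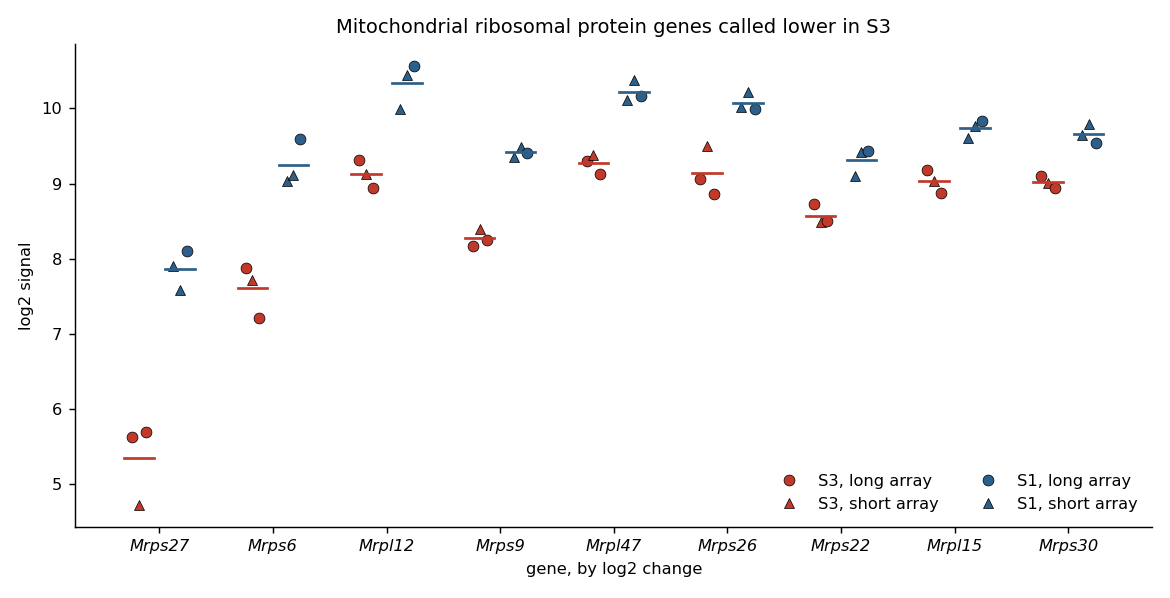
Log2 signal (vertical axis) of the 9 called members on each of the 6 arrays, S3 in red and S1 in blue, with circles for long and triangles for short arrays and a line at each subset's mean. No S3 array of these genes reached the lowest S1 array, and Mrps27 lies lowest in both subsets.

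By role, 5 of 26 small subunit genes fell (median log2 change -0.53) and 4 of 49 large subunit genes (median -0.26), with 0 rising in either. Of all genes tested 12.8% fell. The difference between the subunits was not tested. Of 31 genes for proteins particular to mitochondria 4 fell (median -0.54), and of 44 orthologues of bacterial proteins 5 fell (median -0.29). In the small subunit alone, 3 of 10 genes particular to mitochondria fell (median -0.75) and 2 of 16 orthologues (median -0.46). Mrps36, now known as a component of the 2-oxoglutarate dehydrogenase complex rather than the ribosome, read 9.04, 8.78 and 8.76 in S3, against 8.45, 8.75 and 9.17 in S1, with overlapping subsets (log2 change 0.07 ± 0.23 (SE), limma adjusted p = 0.883).

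Of the 4 genes of the stalk and its base, Mrpl12 was the 1 called. Its anchor Mrpl10 had a log2 change of -0.21 with an interval of -2.68 to 2.27, wide enough to hold the change of Mrpl12. With the kind of array as a block Mrpl10 was called lower (-1.17, limma adjusted p = 0.00285). With median centring added to that block it was not (-0.72, limma adjusted p = 0.146). Mrpl11 of the stalk base changed by -0.38 (-0.78 to 0.02), and Mrpl54, listed with them and named after its values were seen, by -0.55. Of all genes tested 12.8% fell, so lists this short can hold 0 calls without differing from other genes. None of the 9 genes listed here for the central protuberance was called (changes from -0.85 to 0.68). Among them Mrpl18 changed by -0.06 (95% interval -0.69 to 0.57) and Mrpl40 by -0.17 (-1.15 to 0.81). None of the 6 genes listed here for the exit tunnel, through which the new chain leaves, was called either. This list is not complete: the called Mrpl47, the orthologue of bacterial L29, was not in it. The 6 genes therefore do not stand for the whole region. Mrpl45, which ties the ribosome to the inner membrane, changed by -0.65 (-1.61 to 0.30), and Mrpl44, whose subsets did not overlap, by -0.66 (-1.26 to -0.06, limma adjusted p = 0.132). The other tested Mrpl44 probe sets changed by -1.17, -0.94 and -0.80 (limma adjusted p over probe sets = 0.0302, 0.271 and 0.106). With the kind of array as a block 5 of the 9 and 4 of the 6 were called lower, beside 61.8% of all members and 41.2% of all genes. Among them were Mrpl18 (limma adjusted p = 0.0261), Mrpl40 (0.00657), Mrpl45 (0.00544) and Mrpl44 (3.06e-04). With median centring added to the block none of these named genes was called. Their changes were then 0.15, -0.09, -0.46 and -0.42 (limma adjusted p = 0.736, 0.865, 0.346 and 0.248).

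Other members fixed by role gave values on both sides of these. Mrps12, a protein of the decoding region, changed by -0.53 (95% interval -1.40 to 0.35) and Mrpl3, an orthologue of bacterial L3, by -0.73 (-1.32 to -0.15, limma adjusted p = 0.0941). Mrps34, particular to mitochondria, changed by -0.70 (-1.34 to -0.05, limma adjusted p = 0.141) and Mrpl37 by -0.26 (-1.32 to 0.80). Mrpl58, a peptidyl-tRNA hydrolase built into the large subunit, changed by -0.25 (-0.78 to 0.28). The related genes Mrps18a, Mrps18b and Mrps18c, whose products take different places in the ribosome, changed by -0.49 (-1.36 to 0.38), -0.75 (-2.38 to 0.88) and -0.05 (-0.56 to 0.46), and none was called without a block. With the kind of array as a block Mrps18a (-0.76, limma adjusted p = 0.00612) and Mrps18b (-1.38, limma adjusted p = 2.89e-04) were called lower, as were Mrps12, Mrpl3, Mrps34, Mrpl37 and Mrpl52. With median centring added to that block, Mrps18b alone among these kept its call (limma adjusted p = 0.00673). The brightest members were close between subsets or not called. Mrpl51 read 10.73, 10.68 and 10.55 in S3, against 10.66, 10.87 and 10.73 in S1, with a change of -0.10 and an interval of -0.31 to 0.11 that leaves out a 2-fold difference. Mrpl52 changed by -0.78 (-1.36 to -0.19, limma adjusted p = 0.0797). For 23 of the 76 members the whole 95% interval lay within a log2 difference of 1 on either side of 0.

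The 3 members with the largest fitted rises, none of them called (Mrps28 and Mrpl27 were named after their values were seen), followed the kind of array more than the subset. Mrpl14 read 7.48, 5.54 and 7.13 in S3, against 4.71, 5.41 and 7.38 in S1. Mrps28 read 9.60, 6.43 and 9.44 in S3, against 6.66, 6.83 and 9.79 in S1. Mrpl27 read 8.39, 4.97 and 8.09 in S3, against 4.71, 6.02 and 8.68 in S1. In each of these genes the 3 long arrays read higher than the 3 short ones whatever the subset, by an average log2 difference of 2.04 (Mrpl14), 3.06 (Mrps28) and 3.29 (Mrpl27). In all, 22 members differed between the kinds by more than 1 in either direction, and none of these was called without a block, while the 9 called genes differed by at most 0.64. Without a block this gap counts as error, so a gene with a large gap could hardly be called.

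Within the long arrays alone (2 S3, 1 S1) all 76 members read lower in S3, with a median of -0.65, beside 79.6% of all genes and a median of -0.59. The lone S1 array was the brightest of the 6, with a median over genes tested of 6.86, against 6.07 and 6.03 on the long S3 arrays. Relative to each array's own median, the members' median was 2.54 on that S1 array, against 2.77 and 2.51. Within the short arrays alone (1 S3, 2 S1) 65 members read lower, with a median of -0.44, beside 72.2% of all genes and a median of -0.49. Here the lone S3 array was the dimmest of the 6 (5.18, against 5.92 and 5.90 on the short S1 arrays). The members' median relative to it was 3.15, against 2.58 and 3.09. The same direction, lower in S3, held in both kinds for 65 members (85.5%), beside 66.9% of all genes, and no member was higher in both. With the kind of array as a block in limma, 47 members were lower and 0 higher (61.8%, beside 41.2% of all genes lower and 5.81% higher), including all 9 genes called without it. The members' median was then -0.55 and that of all genes -0.54, close to each other. In the fit without the block, where 11.8% of members and 12.8% of all genes were lower, the members' standard errors were smaller (median 0.30, against 0.48 for all genes). The part of this in the calls with the block was not tested.

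**Figure D3:**
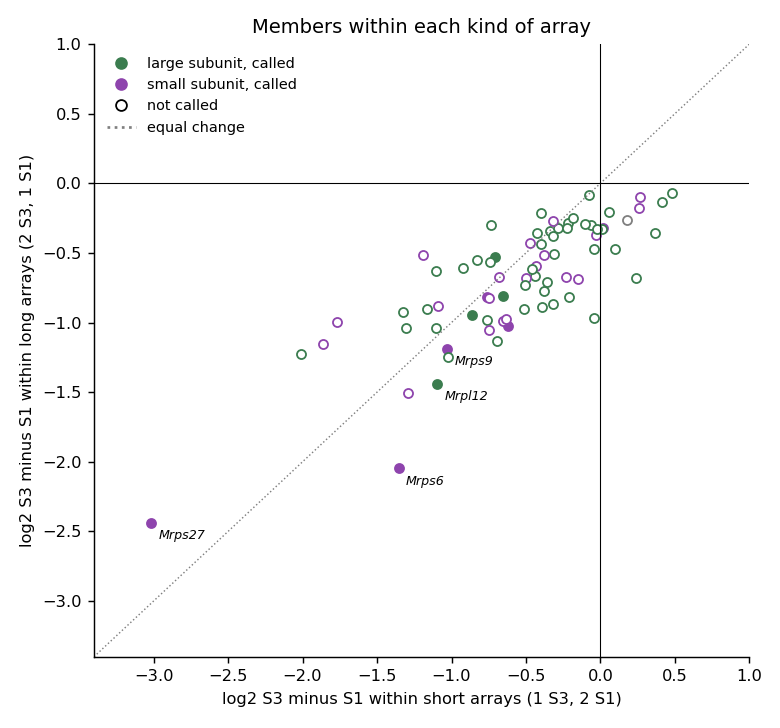
Log2 difference S3 minus S1 of each member within the short arrays (horizontal axis) and within the long arrays (vertical axis), with called genes filled and the 4 largest called falls named. All 76 points lie below 0 on the vertical axis and 65 below 0 on both axes, and the dotted line marks equal changes.

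The number of members below 0 depended on the scale, with 48 of 76 (63.2%) under either other scaling, beside 55.6% of all genes when arrays were centred and 54.2% after quantile normalization. The authors' scaling to reference probe sets left the median of all genes at -0.33, whereas centring each array on its median put it at -0.10 and quantile normalization at -0.07. Relative to these medians the members' median was -0.06 under each of the 3 scalings. Centring shifts the change of every gene by the same amount, so only quantile normalization could have given another value. Mrps27 (log2 change -2.28, limma adjusted p = 0.00243) and Mrps6 (-1.41, limma adjusted p = 0.0274) were the only members called with median centring (2.63%, beside 8.13% of all genes lower and 4% higher). Mrpl12 (-0.98, limma adjusted p = 0.0715), Mrps9 (-0.91, limma adjusted p = 0.122) and the 5 other called genes lost their call there and stayed negative. Quantile normalization called 6 members lower (7.89%, beside 9.4% of all genes lower and 5.83% higher), namely Mrps27, Mrps6, Mrpl12, Mrps9, Mrpl47 and Mrps35.

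Genes that build and serve this ribosome were set beside it, all from the same fit, in which 12.8% of all genes fell and 2.53% rose. Of 25 genes of mitoribosome assembly and ribosomal RNA modification 8 fell and 0 rose (median log2 change -0.86). Noa1, a GTPase needed for mitochondrial translation, read 8.33 ± 0.07 in S3 and 9.80 ± 0.08 in S1 (SD, n = 3 each), a log2 change of -1.47 ± 0.15 (SE, limma adjusted p = 0.00302). The assembly GTPases Gtpbp10 (-1.52 ± 0.31, limma adjusted p = 0.0183) and Eral1 (-1.35 ± 0.30, limma adjusted p = 0.0242) fell as well, as did Rbfa, which acts on the small subunit (-1.55 ± 0.34, limma adjusted p = 0.0236). Of 15 translation factors and helpers 3 fell and 0 rose (median -0.57). These were the elongation factor Tufm (-1.26 ± 0.22, limma adjusted p = 0.0117), the peptide deformylase Pdf (-1.70 ± 0.29, limma adjusted p = 0.00984) and Guf1 (-1.27 ± 0.32, limma adjusted p = 0.0374). Of 19 mitochondrial aminoacyl-tRNA synthetases 3 fell and 0 rose (median -0.81), namely Mars2, Lars2 and Yars2 (-1.79 to -0.99).

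Genes of mitochondrial DNA transcription and replication had the lowest median of these lists, -1.31, with 4 of 12 lower and 0 higher. The replicative helicase Twnk read 6.65 ± 0.06 in S3 and 8.72 ± 0.07 in S1 (SD, n = 3 each), a log2 change of -2.06 ± 0.24 (SE, limma adjusted p = 0.00341). The elongation factor Tefm (-2.48 ± 0.36, limma adjusted p = 0.00634), the RNA polymerase Polrmt (5.72 ± 0.25 in S3 and 7.71 ± 0.17 in S1, limma adjusted p = 0.00806) and the packaging factor Tfam (-1.34 ± 0.37, limma adjusted p = 0.0484) fell with it. With median centring these 4 were still called lower. The calls there numbered 2 of 25 assembly genes, 1 of 15 translation factors, 2 of 19 synthetases and 1 of 11 regulators, beside 8.13% of all genes. Tufm, Lars2, Esrra and Yy1 were among those that lost their call there (limma adjusted p = 0.116, 0.195, 0.0950 and 0.654). With each gene read by the mean of its probe sets, Gtpbp10, Eral1, Tufm, Guf1, Mars2, Lars2, Yars2, Esrra and Yy1 were not called. In that fit Noa1, Rbfa, Pdf, Twnk, Tefm, Polrmt, Tfam and Ppargc1b were still called lower. Differences between the lists were not tested. Among 11 tested regulators of mitochondrial biogenesis, the coactivator Ppargc1b (-2.76 ± 0.62, limma adjusted p = 0.0253), the nuclear receptor Esrra (-1.73 ± 0.44, limma adjusted p = 0.0372) and Yy1 (-0.53 ± 0.11, limma adjusted p = 0.0174) fell. Myc was not called (-2.09 ± 0.85, limma adjusted p = 0.147), though its subsets did not overlap, and neither were Nrf1 (0.78), Gabpa (-0.81), Gabpb1 (-0.08), Pprc1 (-1.13), Mycn (0.37), Tfb1m (-0.05) and Tfb2m (-1.86). With the kind of array as a block 7 of the 11 were called lower, beside 41.2% of all genes. Besides Ppargc1b, Esrra and Yy1 these were Myc (-2.85, limma adjusted p = 1.06e-05), Tfb2m (-2.60, limma adjusted p = 1.72e-05), Pprc1 (-1.43, limma adjusted p = 6.40e-05) and Gabpa (-1.38, limma adjusted p = 5.41e-04). Ppargc1a was too dim to be tested.

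**Figure D4:**
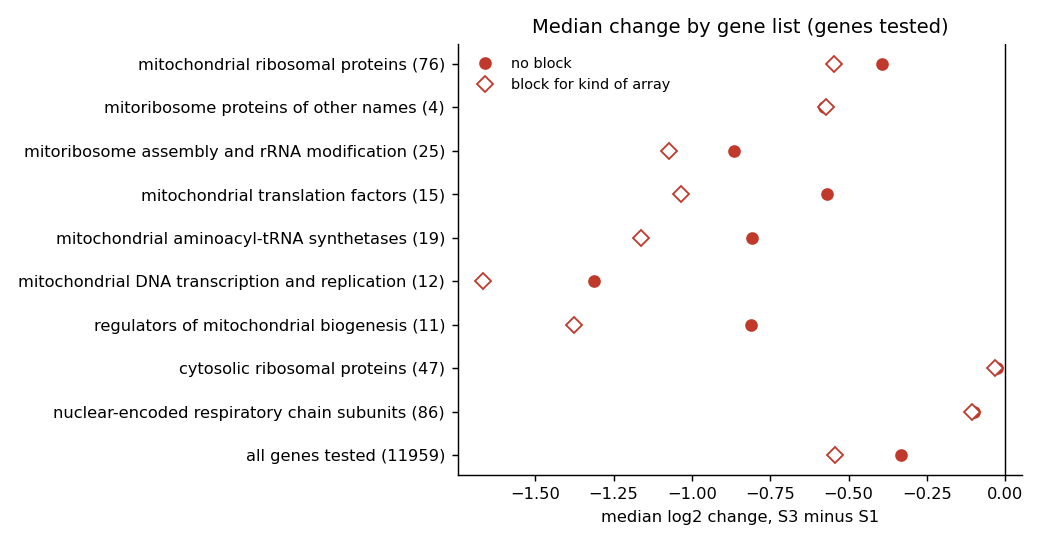
Median log2 change, S3 minus S1, of mitochondrial ribosomal protein genes, of 8 related gene lists and of all genes tested, without a block (filled circles) and with a block for the kind of array (open diamonds), with the number of genes tested in brackets. The members (-0.39 and -0.55) lie beside all genes (-0.33 and -0.54), between cytosolic ribosomal proteins near 0 and the transcription and replication genes at -1.31 and -1.67.

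The proteins of this ribosome that carry other names gave 0 calls of 4 (median -0.58), with Dap3, a small subunit GTP-binding protein, at -0.47 ± 0.16 (limma adjusted p = 0.0854) and Chchd1 at -0.69 ± 0.27 (limma adjusted p = 0.135). With the block for the kind of array 3 of the 4 were called lower, beside 41.2% of all genes. Of 47 cytosolic ribosomal protein genes 1 fell and 0 rose, with a median of -0.03. The faller was Rpl7l1, a relative of Rpl7 (-0.92 ± 0.17, limma adjusted p = 0.0147). Of 86 nuclear-encoded subunits of the respiratory chain and ATP synthase 1 fell and 0 rose, with a median of -0.10, and this was Atp5g2, a membrane rotor subunit of ATP synthase (-0.71 ± 0.16, limma adjusted p = 0.0236). Read by the mean of its probe sets Atp5g2 changed by -0.10 ± 0.55 (SE, limma adjusted p = 0.946), and Rpl7l1 by -0.93 ± 0.25 (SE, limma adjusted p = 0.0528). With median centring neither was called (limma adjusted p = 0.479 and 0.302). With the block for the kind of array 5 of the 47 and 20 of the 86 were called lower, again beside 41.2% of all genes. Both lists read brighter than the mitochondrial ribosomal proteins (median of mean log2 signals 10.9 and 9.80, against 8.69), and the part of this in the smaller changes was not tested. The difference between these lists and the mitochondrial ribosomal proteins was not tested either.

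The share of members called lower was also set beside that of all genes in the other fits. It was 6.58% (all genes 10.5%) with no intensity trend, 17.1% (15.9%) with the replicate number as a block, and 9.21% (16.8%) with the kind of array as a block and median centring. It was 11.8% (7.15%) with no filter and 11.8% (8.29%) with each gene read by the mean of its probe sets. With a filter at the 60th percentile it was 13.2% (17.1%), with a constant added before the logarithm 13.2% (13.5%), and with a robust trend 11.8% (12.6%). Without S3 replicate 1, 2 or 3 it was 7.89%, 17.1% and 6.58% (all genes 6.88%, 10.6% and 5.64%). Without S1 replicate 1, 2 or 3 it was 6.58%, 6.58% and 9.21% (all genes 4.52%, 5.08% and 7.5%).

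**Figure D5:**
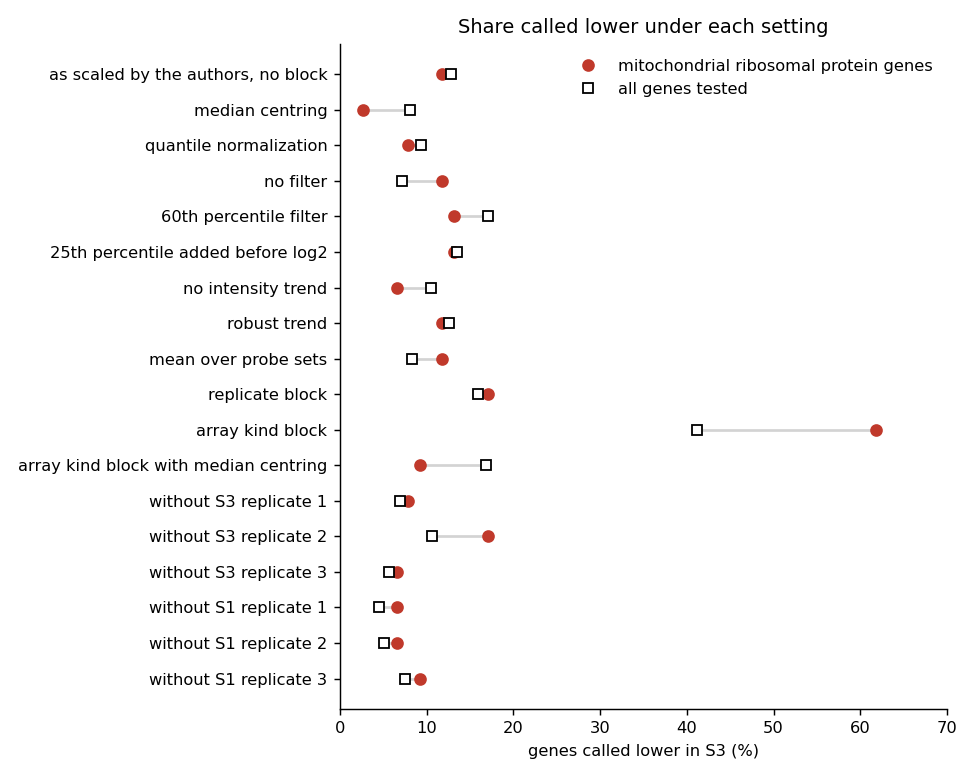
Share of genes called lower in S3 (horizontal axis, percent) under each setting, for mitochondrial ribosomal protein genes (filled circles) and for all genes tested (open squares). The member share runs from 2.63% with median centring to 61.8% with the kind of array as a block.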

How the data were processed

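RNA of sorted cells was amplified, tagged with biotin and hybridised to Affymetrix mouse whole-genome arrays, 3 per subset, according to the labels. The authors computed MAS5 signals, per the submitters' processing notes, and scaled them to 3 reference probe sets (18S ribosomal RNA, Gapdh and beta-actin), per the series' design text. The authors' deposited values are logarithms, read here as log2 because of the size MAS5 signals have, since no label gives the base. Detection calls were not used here.

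Of 45101 probe sets 64 were controls and 34945 others had 1 symbol. For each gene the brightest probe set was kept if its mean exceeded the 40th percentile of non-control probe sets (log2 1.12), which left 11959 genes. The difference S3 minus S1 came from limma 3.58.1 under R 4.3.3 (lmFit, then eBayes with a trend on intensity; two-sided) and Benjamini-Hochberg adjustment over all genes. It had 4 residual and 3.41 prior degrees of freedom. Background was the 95th percentile of 27 bacterial control probe sets per array (log2 1.01 to 1.74). Fits were tested on simulated arrays. The number of arrays limits the precision.

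Members, companion lists, motifs and the block for the kind of array were chosen with earlier results of these data known. The text names every called member, the 3 brightest and 3 dimmest, members fixed by role, up to 4 called genes per companion list (or the 2 of smallest p) and all biogenesis regulators. Probe sets that carry a member's name beside another gene's (4 of them, for Mrpl30, Mrpl53 and Mrps34) were not used. Same-numbered arrays did not deviate together throughout (correlations of deviations -0.19, 0.36 and 0.43), so the numbers were not taken as pairs. Promoters came from RefSeq tables. Alternatives were other scalings, filters, variance priors, probe set rules, blocks and left-out arrays, with the short or long arrays alone added after seeing the data.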

Additional observations from a re-analysis of the deposited data

How the results depend on the processing

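Each of the 9 called genes stayed below 0 in all 17 alternatives (the short or long arrays alone not counted). Most of these could not turn the sign. Filters, variance priors and the replicate block leave the estimate as it is. Where subsets do not overlap, a left-out array, the added constant or the block for the kind of array alone cannot turn it. The other scalings and the mean of probe sets could. Mrps27 and Mrps6 were called in all 17 (limma adjusted p up to 0.0432 and 0.0435). Mrpl12 lost its call in 1 of 17, with median centring (limma adjusted p = 0.0715), Mrpl47 and Mrps9 in 3 each, Mrpl15, Mrps26 and Mrps30 in 8 each and Mrps22 in 10. The count of members lower was 2 with median centring and 5 with no intensity trend, and 47 with the block for the kind of array, which takes the gap between short and long arrays out of the error. It was 16 within short arrays alone and 48 within long arrays alone, fits with 1 array in an arm and 1 residual degree of freedom, where the lone array is assumed to vary like the others, so these counts are no check on the calls. Leaving out single arrays gave 5 to 13 lower members. The count was 5 without S1 replicate 1, without S1 replicate 2 or without S3 replicate 3. Since fewer samples enter each such fit, a lost call there is no sign of a smaller change. The block for the kind of array with median centring gave 7 (Mrps27, Mrps6, Mrpl12, Mrps35, Mrps2, Mrps18b and Mrpl19). The replicate number as a block gave 13, and the numbers share no stated litter or day. No member was called higher under either scaling or the block for the kind of array. Over the 17 alternatives the members' median ran from -0.62 to -0.10, and relative to all genes from -0.19 to 0.04. Of 18 named members not called, 32 values under these 17 alternatives turned sign without a call and 17 gained a call, 12 of these with the block for the kind of array. The cause of these moves was not tested. Dim probe sets and the 6 arrays limit the small changes.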
